A study of Mus musculus with 12 samples.

Results

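The pocket proteins, the MuvB core and its activators form a small set of interacting cell cycle regulators, and their 10 genes were followed through oral tumours of the mouse. They were taken by name, as 3 pocket protein genes (Rb1, Rbl1 and Rbl2), 5 genes of the MuvB core (Lin9, Lin37, Lin52, Lin54 and Rbbp4) and 2 activator genes (Mybl2 and Foxm1), out of 23102 genes on the array. All 10 were measured, by 168 probesets in all, from 6 for Lin52 to 26 for Rb1. The tumours grew in F1 mice of C57BL/6 and FVB given tamoxifen by intraperitoneal injection. In 6 of them, from mice labelled KHR, RAS was expressed together with a transgene labelled iHPV, for which another label names HPV E6. The other 6 tumours, from mice labelled KR, expressed RAS alone. Both groups share RAS and tamoxifen, and by their labels they differ in iHPV. The sources used here do not give the alleles, promoter or Cre driver behind these letters, any other viral gene, or the sex and age of the mice. Whether each tumour is from its own animal is not labelled, and the p-values therefore measure the spread between these samples, which may be partly technical.

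RB1, p107 (encoded by Rbl1) and p130 (Rbl2) are pocket proteins, which bind E2F transcription factors and hold E2F target genes down. In resting and early cycling cells, p130 or p107 with E2F4 and a DP partner join the 5-protein MuvB core to form DREAM, a complex that represses cell cycle genes. When cyclin-dependent kinases phosphorylate the pocket proteins, MuvB leaves them and binds B-MYB (Mybl2) to form MMB, to which FOXM1 is then recruited, and the genes of mitosis are switched on. This picture comes mostly from human cells. In squamous cells infected by oncogenic papillomaviruses, E7 binds pocket proteins and E6 directs p53 to degradation.

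DREAM and MMB meet DNA at short motifs, so the gene starts of Rbl1, Rbl2, Mybl2 and Lin54, whose protein reads one of them, are shown. RefSeq windows of 300 bases (GRCm38.p6), from 250 before to 50 after a start site, matched 7 of the 10 genes, with 2 windows for Lin54, and not Rb1, Lin9 or Foxm1. Capitals mark 2 kinds of motif, searched on both strands: E2F-type letters (TTTCGCGC, TTTGGCGC or GGCGGGA) and the cell cycle genes homology region, CHR (TTTGAA or TTCGAA).
Rbl1, chr2:157204485-157204784, minus strand: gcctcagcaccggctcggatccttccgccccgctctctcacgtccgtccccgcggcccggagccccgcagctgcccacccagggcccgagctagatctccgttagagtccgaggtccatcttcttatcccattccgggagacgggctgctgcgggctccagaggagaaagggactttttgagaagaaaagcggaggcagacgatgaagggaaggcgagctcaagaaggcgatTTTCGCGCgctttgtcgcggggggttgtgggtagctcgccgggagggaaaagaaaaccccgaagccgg
Mybl2, chr2:163054385-163054684, plus strand: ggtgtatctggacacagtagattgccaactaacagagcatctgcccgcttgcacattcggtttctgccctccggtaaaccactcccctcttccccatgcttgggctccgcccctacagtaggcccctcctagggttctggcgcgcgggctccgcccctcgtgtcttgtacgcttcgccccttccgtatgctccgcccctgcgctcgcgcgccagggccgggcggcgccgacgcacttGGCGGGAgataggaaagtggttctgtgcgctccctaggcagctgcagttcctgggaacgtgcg
Lin54, chr5:100498524-100498823, minus strand: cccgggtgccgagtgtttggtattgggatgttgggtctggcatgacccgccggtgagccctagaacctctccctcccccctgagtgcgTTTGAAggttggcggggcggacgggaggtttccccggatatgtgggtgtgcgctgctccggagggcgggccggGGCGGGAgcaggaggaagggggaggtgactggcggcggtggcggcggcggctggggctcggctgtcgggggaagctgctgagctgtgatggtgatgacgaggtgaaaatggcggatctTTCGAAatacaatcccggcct
Rbl2, chr8:91069807-91070106, plus strand: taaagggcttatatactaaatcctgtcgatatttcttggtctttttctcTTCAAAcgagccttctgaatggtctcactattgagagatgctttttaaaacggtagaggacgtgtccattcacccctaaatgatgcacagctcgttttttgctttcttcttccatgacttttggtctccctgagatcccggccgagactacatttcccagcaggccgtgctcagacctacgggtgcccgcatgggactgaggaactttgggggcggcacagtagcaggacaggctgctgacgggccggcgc

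The E2F-type match began 18 bases before the start site in Rbl1 (position -18) and at position -13 in Mybl2. In the Lin54 window shown, which lies inside the annotated gene, an E2F-type match began at -89 and CHR matches at -162 and 30. The other Lin54 window, chr5:100500590-100500889, covers the outer start of the gene. It held a CHR match at 41 and no E2F-type letters. The Mybl2 window likewise lies inside the annotated gene. Rbl2 held a CHR match at -201, read on the opposite strand, and no E2F-type letters. Lin37 held an E2F-type match at -16 and a CHR match at -197, Lin52 E2F-type matches at -223 and -25, and Rbbp4 neither motif. E2F-type letters were thus in 5 of 7 members and CHR letters in 3 of 7, against 13.4% and 21.7% of 27025 genes with such a window. Among 38 genes of DNA replication known as E2F targets, 23 held E2F-type letters, and among 42 genes of mitosis known as DREAM, MMB and FOXM1 targets, 33 held CHR letters. No match overlapped another. A match is a description of the letters and does not show that a factor binds there.

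RNA from each tumour was read on 1 Affymetrix Mouse Gene 2.0 ST array, and 6 arrays against 6 limit the precision. Values are log2 intensities, 1 per gene and array, being the median over the probesets assigned to that gene alone, and no gene's level is set against another gene's because probes differ in brightness. Each change is the KHR mean less the KR mean, in log2 units with its SE, tested with limma over all genes with Benjamini-Hochberg adjustment. At an adjusted p under 0.05, 863 genes differed, 3.74% of those tested, with 2.71% higher and 1.03% lower in KHR tumours. The mean of 10 epithelial marker genes such as Krt5 and Krt14 lay between 11.3 and 11.7 on KHR arrays and between 11.3 and 11.6 on KR arrays. Krt13 alone of the 10 passed, with a change of -1.26 ± 0.22 (SE; limma adjusted p = 0.00571). Epcam differed by 0.88 ± 0.24 and did not pass (limma adjusted p = 0.0670), so the list mean hides changes in both directions. The mean of 30 skeletal muscle genes spanned 5.45 to 8.03 on KHR arrays, highest on KHR 5, and 5.44 to 6.88 on KR arrays. None of the 30 passed, but 28 had changes above 0, with a median of 0.60, the direction of most members; the part of muscle in the members' changes was not tested beyond the covariate fit given further on. Means spanned 8.23 to 9.15 against 8.06 to 9.23 for 10 fibroblast genes (1 lower) and 6.97 to 7.27 against 6.91 to 7.72 for 7 endothelial genes (none passed), KHR against KR arrays. The mean of 9 leukocyte genes spanned 5.66 to 6.09 on KHR arrays and 5.23 to 5.86 on KR arrays, with none past the threshold. Xist, the RNA of the inactive X chromosome, was above 11 on KHR 3, 4, 5 and 6 and on KR 4 and 6 and below 5 on the other arrays.

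Among the 10 members, 4 rose in KHR tumours and none fell, which is 40% against the 2.71% of all genes called higher (3.74% in either direction). Those that rose were Lin9 and Lin54 of the MuvB core, the pocket protein gene Rbl1 and the activator gene Foxm1. The median change of the 10 was 0.44, against 0.00450 over all genes. Changes were above 0 for 9 of the 10, and for 11783 of all 23102 genes. Lin37 is among the 9, although its sign turned with the way probesets were combined. Lin9 and Lin54 kept their calls in each alternative analysis that was run, including the loss of any 1 array. The calls of Rbl1 and Foxm1 lay close to the threshold. Mybl2 did not pass here, but passed under 4 other ways of combining probesets, some of them chosen after the data were seen. In bulk tumour RNA, more cycling cells and more RNA per cell cannot be told apart.

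**Figure D1:**
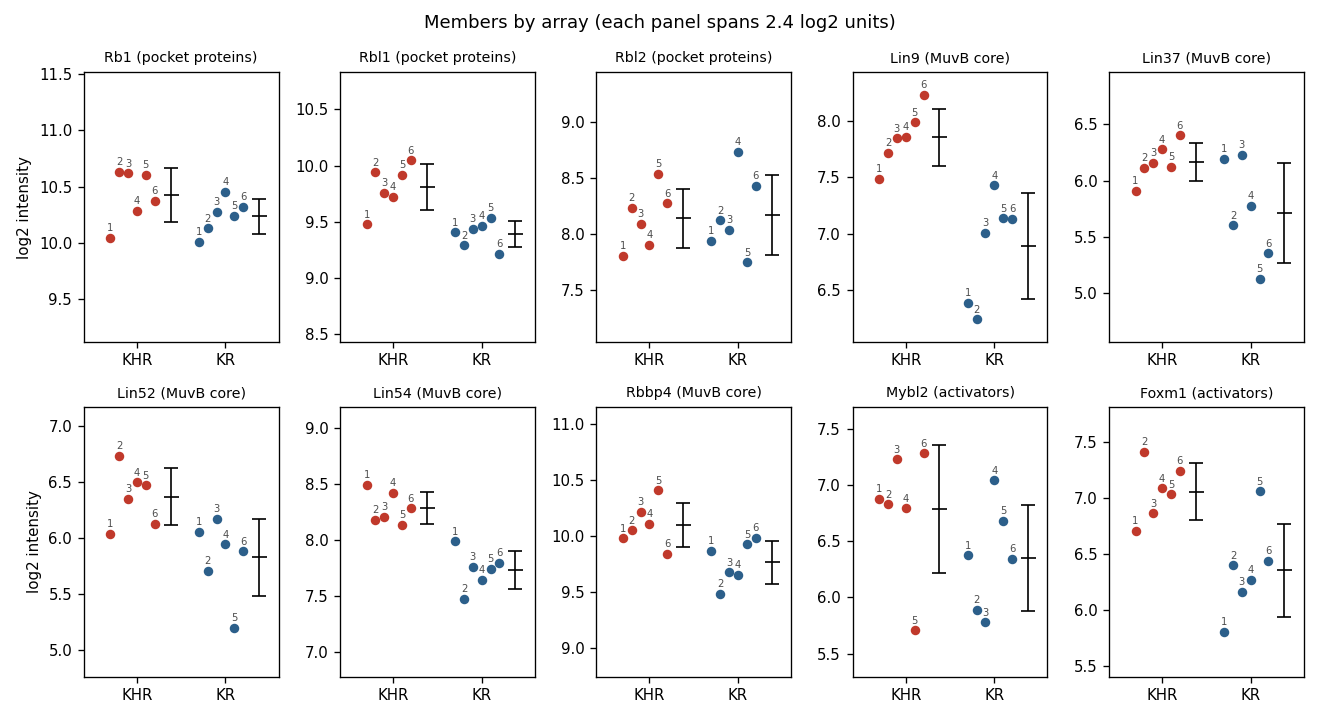
Log2 intensity (vertical axis) of the 10 members on each array, KHR tumours in red on the left and KR tumours in blue on the right of each panel; numbers are the tumour numbers, and the bar beside each group is the mean with its SD (n = 6 each). Lin9 and Lin54 are the members whose KHR arrays all lie above all KR arrays, and Mybl2 on KHR 5 lies below every other array of that gene.

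Of the 3 pocket protein genes, Rbl1 rose and the others did not pass. Rbl1 encodes p107, the pocket protein of cycling cells and itself a known E2F target. It stood between 9.48 and 10.05 on KHR arrays (median 9.84) and between 9.21 and 9.53 on KR arrays (median 9.42). All KHR arrays but KHR 1 lay above the highest KR array. Rbl1 rose by 0.42 ± 0.10 (SE; 1.34-fold, limma adjusted p = 0.0387). Its call was lost on leaving out any array except KHR 1 or KR 5, with adjusted p-values between 0.0104 and 0.0888 over the 12 omissions, although the change stayed between 0.37 and 0.49.

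Rbl2 encodes p130, the pocket protein of resting cells and the usual partner in DREAM. It stood between 7.81 and 8.53 on KHR arrays (median 8.16) and between 7.75 and 8.73 on KR arrays (median 8.08). The groups overlapped throughout, with KR 4 the highest array and KR 5 the lowest. The change was -0.03 ± 0.17 (SE; limma adjusted p = 0.964), with a 95% interval from -0.39 to 0.33, and its sign turned in several alternatives. Rb1, the retinoblastoma tumour suppressor gene, stood between 10.04 and 10.63 on KHR arrays (median 10.49) and between 10.01 and 10.45 on KR arrays (median 10.26). KHR 2, 3 and 5 lay above all KR arrays, and the other KHR arrays lay within the KR range. The change of 0.19 had a 95% interval from -0.06 to 0.44 and did not pass. For these genes the intervals exclude a 2-fold change in either direction, and neither shows that the groups are alike.

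Of the 5 MuvB genes, Lin9 and Lin54 rose. Lin9 encodes the scaffold subunit that, with LIN52, forms the surface for B-MYB. Lin9 stood between 7.49 and 8.24 on KHR arrays (median 7.85) and between 6.24 and 7.43 on KR arrays (median 7.07). Every KHR array lay above every KR array, as for 1.83% of all genes (0.84% lay below), and KR 1 and KR 2 lay apart from the other KR arrays at the low end. Lin9 rose by 0.97 ± 0.20 (SE; 1.96-fold, with a 95% interval from 1.46-fold to 2.62-fold, limma adjusted p = 0.0142). Of its 15 probesets, 15 had changes above 0 and 4 passed on their own.

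Lin54 encodes the subunit that reads CHR motifs of the kind in capitals above. It stood between 8.13 and 8.49 on KHR arrays (median 8.24) and between 7.48 and 7.99 on KR arrays (median 7.75). Here too the groups did not overlap, and the gap between KHR 5 and KR 1 was small. Lin54 rose by 0.55 ± 0.10 (SE; 1.46-fold, limma adjusted p = 0.00710), the smallest p among the members. Of its 18 probesets, 16 had changes above 0, and none passed on its own.

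The remaining MuvB genes did not pass. Lin52, whose phosphorylated protein contacts the pocket protein in human cells, stood between 6.03 and 6.73 on KHR arrays (median 6.41) and between 5.20 and 6.17 on KR arrays (median 5.91). KHR 2, 3, 4 and 5 lay above all KR arrays, and the difference of 0.54 ± 0.16 had an adjusted p of 0.0903 (limma). One probeset went far the other way, at -1.09, so that the mean over the 6 probesets differed by only 0.25. Rbbp4, a histone-binding protein shared with many chromatin complexes, stood between 9.84 and 10.41 on KHR arrays (median 10.08) and between 9.49 and 9.99 on KR arrays (median 9.77). KHR 2, 3, 4 and 5 lay above all KR arrays. It differed by 0.33 ± 0.11 (SE; limma adjusted p = 0.142), and 1 of its 17 probesets passed.

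Lin37, a subunit required for repression by DREAM, stood between 5.91 and 6.40 on KHR arrays (median 6.14) and between 5.12 and 6.23 on KR arrays (median 5.69). The KHR arrays lay close together, and KHR 4 and 6 alone lay above the highest KR array. Its difference of 0.45 ± 0.18 (SE; limma adjusted p = 0.212) rested on how probesets were combined. Over probesets, 6 changes were above 0 and 6 below. The difference was 0.10 with the mean over probesets, -0.0038 with median polish, and -0.19 with only the brighter probesets, so no direction is given for Lin37.

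**Figure D2:**
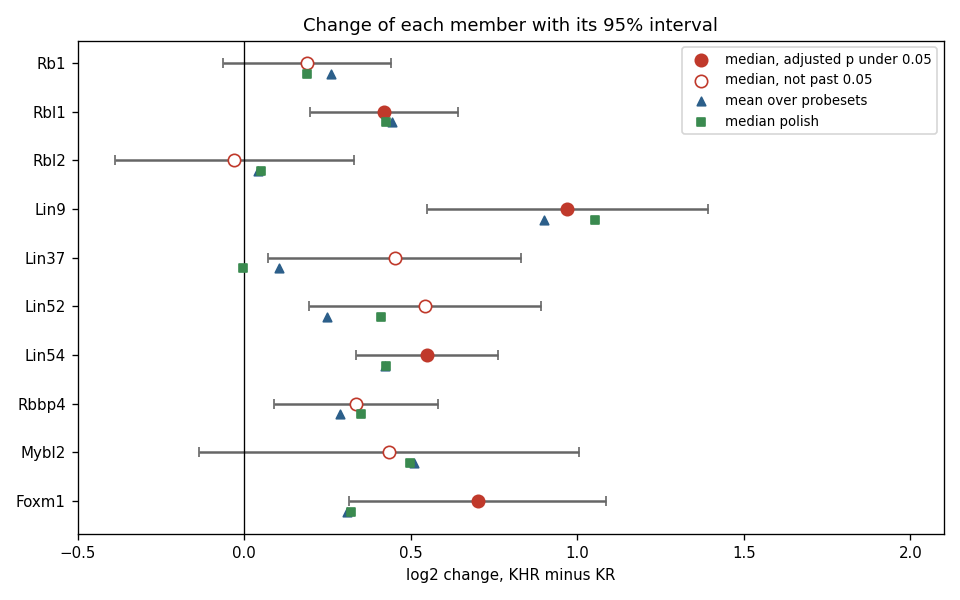
Log2 change, KHR minus KR (horizontal axis), of each member with its 95% interval from limma; filled circles passed an adjusted p of 0.05, and triangles and squares give the same change after averaging probesets and after median polish. Lin9 lies farthest to the right at 0.97, Rbl2 lies at -0.03, and Lin37 and Foxm1 move most between summaries.

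Of the 2 activators, Foxm1 passed narrowly. Foxm1 encodes the forkhead factor that joins MMB before mitosis. It stood between 6.70 and 7.41 on KHR arrays (median 7.06) and between 5.81 and 7.06 on KR arrays (median 6.33). KR 5 lay among the KHR arrays, and the other KR arrays lay below all of them. The rise was 0.70 ± 0.18 (SE; 1.63-fold, limma adjusted p = 0.0468), but 0.31 when probesets were averaged and 0.32 by median polish, which also passed (adjusted p = 0.0378 and 0.0374). The call was lost on leaving out any array except KHR 1 or KR 5 (adjusted p between 0.0085 and 0.0991 over the 12 omissions), and with quantile normalization, array medians subtracted or a moderated fit with a trend (adjusted p = 0.0700, 0.0581 and 0.0501).

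Mybl2, the gene of B-MYB, stood between 5.71 and 7.28 on KHR arrays (median 6.85) and between 5.78 and 7.04 on KR arrays (median 6.36). Over all 18 probesets, KHR 5 was the lowest of all 12 arrays, and the groups overlapped. The difference of 0.44 ± 0.27 (SE) did not pass (limma adjusted p = 0.478). The mean over probesets gave 0.51 and median polish 0.50, and both passed (adjusted p = 0.0269 and 0.0120).

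The probesets of Mybl2 fell into 2 runs of neighbouring identifiers, 15 in one and 3 in the other. The 3 were dim, with means of their median at 3.66 in KHR tumours and 3.72 in KR tumours, and their changes lay between -0.04 and 0.06. Over the 15, Mybl2 stood at 7.37, 7.80, 8.25, 7.95, 7.55 and 7.94 on KHR arrays and at 6.96, 6.69, 6.77, 7.12, 7.07 and 6.88 on KR arrays. On these values every KHR array, KHR 5 included, lay above every KR array. When the longest run alone was used for each gene, a choice made after these values were seen, the change of Mybl2 was 0.89 ± 0.14 (SE; limma adjusted p = 0.00274, adjusted over all genes). Rbl1, Lin9, Lin54 and Foxm1 each have 1 run, so this choice left their values unchanged and they passed as before. Rbbp4, the other member with 2 runs, differed by 0.35 under it (limma adjusted p = 0.110), and no further member passed.

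**Figure D3:**
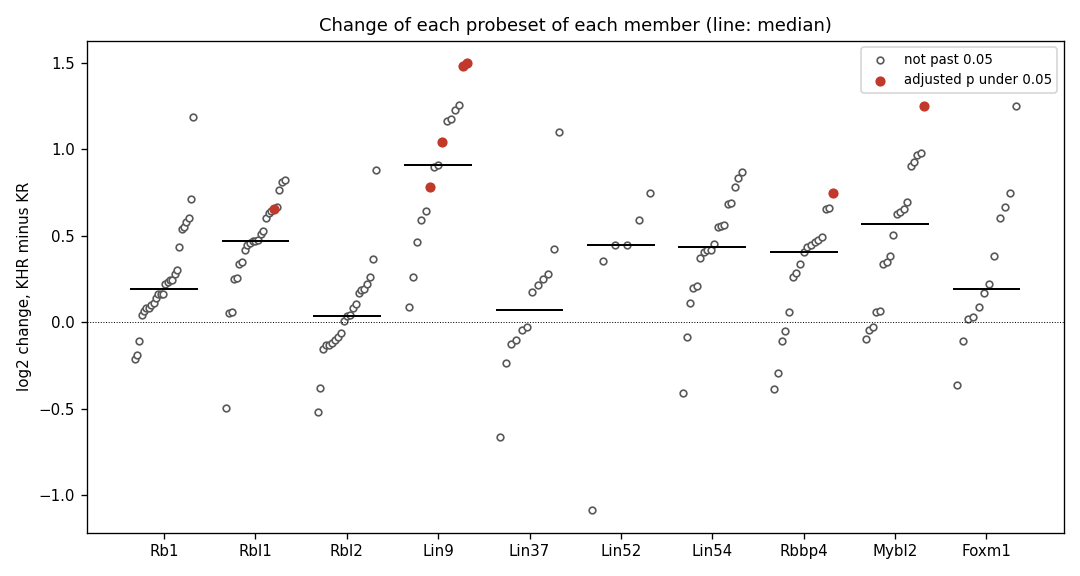
Log2 change, KHR minus KR (vertical axis), of each of the 168 probesets of the members, sorted within a gene; filled points passed an adjusted p of 0.05 over all probesets and the line is the median of the gene's probesets. All 15 probesets of Lin9 lie above 0, those of Rbl2 and Lin37 lie on both sides of it, and 4 of the 7 that passed belong to Lin9.

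Tested one by one over all 269751 probesets, of which 0.883% passed, 0.616% as higher and 0.267% as lower, 7 of the 168 member probesets were higher and none lower. They were 4 of Lin9 and 1 each of Rbl1, Rbbp4 and Mybl2. Their changes lay between 0.65 for Rbl1 and 1.50 for Lin9, with adjusted p-values (limma) from 0.00393 to 0.0473. Changes were above 0 for 137 of the 168, among them 22 of 23 for Rbl1, 23 of 26 for Rb1 and 12 of 21 for Rbl2. The median change over all probesets was 0.00376. All KHR arrays lay above all KR arrays for 13 of the 168, against 0.985% of all probesets, and below them for none, against 0.67%. Probesets of 1 gene share its RNA and are not replicates.

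Each class was also summarised per array, with every gene centred on its KR mean. The mean of the 5 MuvB genes lay between 0.39 and 0.65 on KHR arrays, against -0.28 to 0.18 on KR arrays. All KHR arrays thus lay above the KR range. This mean includes Lin37, for which no direction is given, and of the 5 genes Lin9 and Lin54 alone passed. The mean of the 2 activators lay between 0.02 (KHR 5) and 0.91 on KHR arrays, against -0.38 to 0.52 on KR arrays, and 4 KHR arrays lay above the KR range. The mean of the 3 pocket proteins lay between -0.16 and 0.42 on KHR arrays, against -0.15 to 0.28 on KR arrays, and 3 lay above the KR range. Median changes were 0.54 for the MuvB core, 0.57 for the activators and 0.19 for the pocket proteins. In the same order they were 0.29, 0.41 and 0.26 with the mean over probesets, and 0.41, 0.41 and 0.19 by median polish. The distance between the classes thus depended on how probesets were combined. The difference between classes was not tested, and the activator values are those with all 18 Mybl2 probesets.

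Other subunits and paralogues were followed beside the members. Of 9 genes listed as DREAM partners or paralogues, 2 rose and none fell, with a median change of 0.13. Tfdp2, which encodes a DP partner of E2F, rose by 0.66 ± 0.15 (SE; limma adjusted p = 0.0225), and Rbbp7, the paralogue of Rbbp4, by 0.36 ± 0.08 (adjusted p = 0.0245). E2f4 and E2f5, the E2F genes of DREAM, differed by -0.14 ± 0.16 and 0.12 ± 0.13, and Tfdp1 by 0.16 ± 0.08. Dyrk1a, the gene of the kinase that phosphorylates LIN52, differed by 0.07 ± 0.09, and its paralogue Dyrk1b by 0.09 ± 0.19. Mybl1 and Myb, the paralogues of Mybl2, differed by 0.31 ± 0.20 and 0.13 ± 0.15, and none of these passed.

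Among the E2F genes outside DREAM, the activator E2f2 rose by 0.64 ± 0.17 (SE; limma adjusted p = 0.0481), while E2f1 differed by 0.47 ± 0.12 (adjusted p = 0.0523) and E2f3 by 0.05 ± 0.09. The repressors E2f7 and E2f8, which need no pocket protein, rose by 1.11 ± 0.22 and 0.74 ± 0.16 (adjusted p = 0.0133 and 0.0213), and E2f6, of a separate repressor complex, differed by 0.52 ± 0.14 (adjusted p = 0.0576). Of 10 cyclins and kinases that act on pocket proteins, 4 rose and 1 fell. The cyclin E genes Ccne1 and Ccne2 rose by 1.27 ± 0.16 and 1.55 ± 0.25, Cdk2 by 1.00 ± 0.12 and Cdk1 by 0.75 ± 0.13 (adjusted p from 0.000549 to 0.00515). The D-type cyclin genes, whose kinases act first on RB1, gave no rise: Ccnd1 fell by 0.52 on the log2 scale (adjusted p = 0.0346), while Ccnd2 and Ccnd3 differed by -0.35 ± 0.13 and 0.26 ± 0.17. Ccna2, the cyclin A2 gene, differed by 0.51 ± 0.20, and Cdk4 and Cdk6, the partners of the D-type cyclins, by 0.22 ± 0.08 and -0.08 ± 0.12, and none of these passed. None of 7 CDK inhibitor genes passed over all genes (limma), with changes from -0.81 ± 0.31 for Cdkn2a to 0.41 ± 0.17 for Cdkn2d.

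Known targets of these complexes were followed as 2 lists. Of 47 replication genes with E2F sites in textbook lists, 36 rose and none fell, 76.6% against 2.71% of all genes, with a median change of 0.84. Of 49 mitotic genes known as CHR targets, 32 rose and none fell, 65.3%, with a median change of 0.63. The E2F list mean lay between 8.09 and 8.40 on KHR arrays and between 7.17 and 7.39 on KR arrays, and the CHR list mean between 8.19 and 8.56 on KHR arrays and between 7.62 and 7.85 on KR arrays. The groups overlapped in neither list mean. KHR 5 had a CHR list mean of 8.35. Its Mybl2 value was low over all 18 probesets, but above every KR array over the longer run of 15. The smallest p-values in the E2F list were those of the primase gene Prim1 at 1.62 ± 0.09, the helicase genes Mcm6 at 1.30 ± 0.10 and Mcm4 at 1.11 ± 0.10, and the ligase gene Lig1 at 0.94 ± 0.08 (limma adjusted p from 3.4e-07 to 5.29e-05). The smallest p-values in the CHR list were those of Spag5, a spindle protein gene, at 1.03 ± 0.14, Ccnb2 at 0.81 ± 0.11, Ttk at 0.99 ± 0.15 and Aurkb at 0.64 ± 0.10 (limma adjusted p from 0.00116 to 0.00225). Plk1, a mitotic kinase gene of the CHR list, differed by 0.38 ± 0.13 and did not pass (limma adjusted p = 0.152). It was named after its value was seen, and 32 of the 49 genes of this list rose. The replication and mitotic lists were known from earlier results of these data to rise, and their counts here are no independent support.

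**Figure D4:**
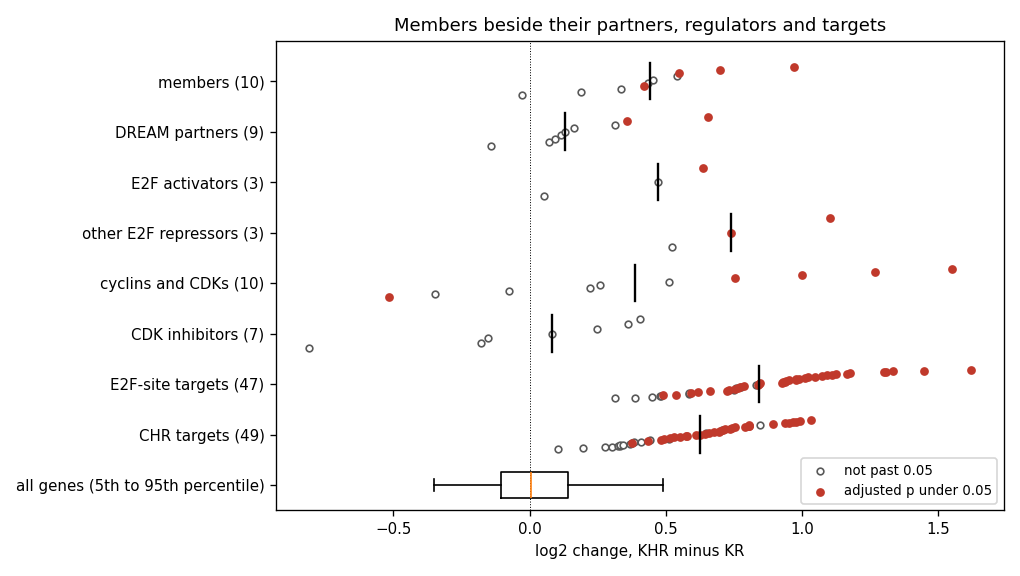
Log2 change, KHR minus KR (horizontal axis), of each gene in the members and in lists of their partners, regulators and targets; filled points passed an adjusted p of 0.05, the vertical bar is the median, and the box gives the quartiles of all genes with whiskers from the 5th to the 95th percentile. The member median of 0.44 lies between the DREAM partners at 0.13 and the E2F-site targets at 0.84.

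Xist was high on 4 KHR arrays and 2 KR arrays, and the muscle gene mean was 0.56 higher in KHR than in KR tumours. With the Xist level as a covariate, Lin9 and Lin54 passed (limma adjusted p = 0.0246 and 0.0165), and Rbl1 and Foxm1 did not (0.0844 and 0.0887). With the mean of the muscle genes as a covariate, Lin9 and Lin54 again passed (0.0447 and 0.0060), and Rbl1 and Foxm1 did not (0.107 and 0.126). Under these covariates the changes were 0.41 and 0.36 for Rbl1 and 0.71 and 0.57 for Foxm1. Their part in the changes beyond these fits was not tested.

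Profiles over the 12 arrays were compared by the root mean square difference between genes centred on their own means, among 19400 other genes with 3 or more probesets. For Rbl1, the nearest gene was Mertk, at 0.106, followed by Fut8 and Idh3a, both at 0.108, against a median of 0.340 over all genes compared. For Foxm1, Fam83a was nearest, at 0.208, followed by Fbxo25 and Gsr, at 0.232 and 0.233 (median 0.520). The profile of Mybl2 was that over all 18 of its probesets, with the low value on KHR 5. For Mybl2, Cenpm, a centromere protein gene, was nearest, at 0.266, followed by Slco2a1 and Litaf, at 0.280 and 0.288 (median 0.574). For Rb1, they were Uchl5, Copb1 and Lrrc3, at 0.093, 0.097 and 0.100 (median 0.307). No other member was among these nearest genes. The nearest of so many genes lie below the median by selection. A flat gene would lie at 0.206 from Rb1, 0.259 from Rbl1, 0.526 from Mybl2 and 0.470 from Foxm1.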

How the data were processed

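The 12 arrays carry deposited log2 intensities, 1 per probeset, for 269751 probesets; that the log is base 2 was inferred from their range (2.66 to 14.95). Partek, with no version, is listed in the submitters' processing notes. The sources used here do not state background correction, normalization or build. Array medians lay between 5.62 and 5.75. GEO's platform annotation gave 233753 probesets 1 symbol (used), 5106 several and 30892 none. Of 23152 symbols, 2247 were updated through RefSeq and 30 kept unmatched. No filter on dim genes was set, and no detection call was available.

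limma 3.58.1 (lmFit, eBayes) in R 4.3.3 was fitted without covariates, two-sided, over all genes and over all probesets, and tested on simulated data. Tables were made with pandas 2.3.3 under Python 3.11.15, arithmetic with numpy 2.4.6, and figures with matplotlib 3.10.9. Alternatives were other probeset summaries, scalings, filters and covariates, the replicate number as a block and leaving out each array.

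The members and lists were chosen with earlier results of these data known, and the summaries by brighter probesets and by longest identifier run after the data were seen. The rule for named genes took all members, allowed any gene of a pathway list of up to 10, and took the 4 smallest p-values of each longer pathway list and the 3 nearest profiles of Rb1, Rbl1, Mybl2 and Foxm1. Plk1, Krt13 and Epcam were named outside this rule, after their values were seen. Some genes of the lists are not reported here.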

Additional observations from a re-analysis of the deposited data

Results flagged for a closer look

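Mybl2 on KHR 5 lay far below the other KHR tumours, at 5.71 on the log2 scale with the next lowest at 6.79, and this gap was 0.689 of the range of the group. Chance flags about 1 in 20 groups, and 20 groups of 6 arrays were examined. Over the longer run of Mybl2 probesets, KHR 5 stood at 7.55, within the KHR range of 7.37 to 8.25.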

How the results depend on the processing

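Lin9 and Lin54 passed in each of 12 omissions of 1 array and 12 other alternatives, with changes of Lin54 between 0.42 and 0.61. The filters on whole genes and the longest identifier run left the values of both genes unchanged, so these alternatives tested little for them. Leaving out 1 array gave between 523 (without KHR 4) and 1085 genes, 531 without KR 2, between 1081 (without KHR 3) and 3104 probesets, between 2 and 4 members (2 without any array except KHR 1 or KR 5), and between 2 (without KHR 3) and 11 (without KHR 1) member probesets past the threshold. With the Xist covariate these were 555 genes, 1165 probesets, 2 members and 3 member probesets; with the muscle covariate, 1039 probesets, 2 members and 2 member probesets. The mean over probesets gave 1445 genes. Tumour numbers were not shown to pair the tumours: same-numbered tumours correlated between -0.0029 and 0.234 in their deviations, and 1 of 6 KHR tumours matched its own number best. With the replicate block, 925 genes, 1056 probesets, 3 members and 2 member probesets passed, and Rbl1 did not (adjusted p = 0.0851). Rbl2 changed sign with the mean over probesets (0.042) and median polish (0.0503), and ranged from -0.113 to 0.084 on leaving out 1 array. Lin37 changed sign with median polish (-0.0038) and with brighter probesets only (-0.19), where Foxm1 did not pass (0.37, adjusted p = 0.204) and Mybl2 did (0.91, adjusted p = 0.00689). The target lists kept between 32 and 37 (E2F) and between 25 and 32 (CHR) higher genes on leaving out 1 array. Causes were not tested. Without a detection call, changes of dim probesets are not exact.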
